A study of Mus musculus with 16 samples.

Results

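The genes described here are 45 genes of the cell cycle and of DNA replication, taken by gene symbol from the 54347 genes of the count table and read in brown adipocytes with and without β-adrenergic stimulation. They were grouped by role into 3 D-type cyclins, 4 cyclins and kinases of G1/S and S phase, 10 genes of origin licensing and firing, 5 genes of nucleotide supply, replication fork and maintenance, 3 transcription factors, 14 mitotic genes, the proliferation markers *Mki67* and *Top2a*, and 4 inhibitors of cyclin-dependent kinases (CDKs). Of these, 44 passed the filter on low counts, as did 13150 genes in all. The gene left out was *Cdkn1c*, a CDK inhibitor, which had 0 or 1 count in each library.

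All 16 libraries came from wt1-SAM, a single immortalised line of mouse brown preadipocytes in which the CRISPRa SAM system is stably expressed. With this system a single guide RNA (sgRNA) switches on transcription of a chosen gene. The cells were differentiated with a cocktail that included rosiglitazone, T3, dexamethasone, insulin, indomethacin and IBMX, were reverse transfected on day 4 with 250 ng plasmid, and were harvested on day 7, when polyA RNA was sequenced. The 4 groups were empty vector without stimulation (empty control), empty vector stimulated for 24 h with the β-adrenergic agonist isoproterenol at 1 µM (empty isoproterenol), and the plasmids pSgRNA-MS2-2+7, whose guides are directed at the lncRNA gene *Gm15551*, without stimulation (sgRNA control) and with it (sgRNA isoproterenol). Each group held 4 libraries, numbered replicate 3 to 6, with each number present once in every group. The labels do not say whether libraries are separate cultures, so the p-values measure the spread between these libraries, which may be technical.

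Cells enter the cycle when D-type cyclins with CDK4 and CDK6 release E2F factors from the retinoblastoma protein, after which E2F targets supply cyclin E, the MCM helicase that licenses replication origins, and the enzymes that make deoxynucleotides. Mitotic cyclins, kinases and spindle proteins follow late in the cycle, when the MuvB complex with MYBL2 and then FOXM1 drives their genes. Differentiating adipocytes leave the cycle, and inhibitors of the INK4 family (*Cdkn2a* to *Cdkn2d*) and the CIP/KIP family (*Cdkn1a* to *Cdkn1c*) hold CDKs in check.

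The libraries held 9053521 to 16546187 counts, of which a single ribosomal RNA gene took 11.7% to 51.8%. *Gm15551* itself had 3 to 18 counts in empty control and 19 to 56 in sgRNA control libraries, and 0 to 5 against 13 to 26 with isoproterenol, so the plasmid groups did not overlap within a treatment. Adipocyte markers were abundant, with *Fabp4*, a fatty acid binding protein, at a mean of 14460 CPM (counts scaled to the size of the library), whereas the brown fat marker *Ucp1* stood at 0.35 ± 0.302 and 0.548 ± 0.316 CPM (SD, n = 4) in the empty and sgRNA control groups and at 6.42 ± 2.67 and 9.35 ± 4.25 CPM with isoproterenol, and *Dio2* was near 0. In such bulk RNA, fewer cells of a type and less RNA per cell cannot be told apart.

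Transcripts of every step of the cycle were detected in these differentiated cells, and the 44 genes except *Ccnd1* lay between percentile 50 (*Foxm1*) and 98.4 of all genes tested. *Pcna*, the sliding clamp of the replication fork, was highest at 200 CPM per kb of exon (lowest and highest library 176 and 237). *Cdkn1a*, a CIP/KIP inhibitor and p53 target, followed at 74.3, *Rrm2*, the regulatory subunit of ribonucleotide reductase, at 58.6, the helicase subunit *Mcm7* at 47.1 and the INK4 inhibitor *Cdkn2c* at 44.2 CPM per kb. The library ranges of *Cdkn1a* (58.9 to 88.2), *Rrm2* (40 to 88.9), *Mcm7* (40.8 to 51.4) and *Cdkn2c* (25.6 to 61.7) overlapped between neighbours, so their order was not settled beyond their spread.

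Further down, the helicase subunits *Mcm4* (35.5), *Mcm6* (34.8) and *Mcm5* (29.8) stood close together with *Ccne2* (30.6), a cyclin E gene, and *Ube2c* (30.3), the ubiquitin conjugating enzyme of the anaphase promoting complex. The mitotic cyclin *Ccnb2*, topoisomerase *Top2a* and *Cdk1* lay between 21.2 and 23.3 CPM per kb, and *Mki67* at 15.9. At the low end were *Cenpf*, a kinetochore protein (4.04), and the transcription factors *Mybl2* (3.74) and *Foxm1* (3.46). *Ccnd1*, the D-type cyclin that mitogens induce, was lowest of the 44 at 0.589 CPM per kb, percentile 14.8, with 17 to 69 counts per library. The other D-type cyclins, *Ccnd2* at 12.5 and *Ccnd3* at 7.88 CPM per kb, stood above *Ccnd1* in every library.

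**Figure D1:**
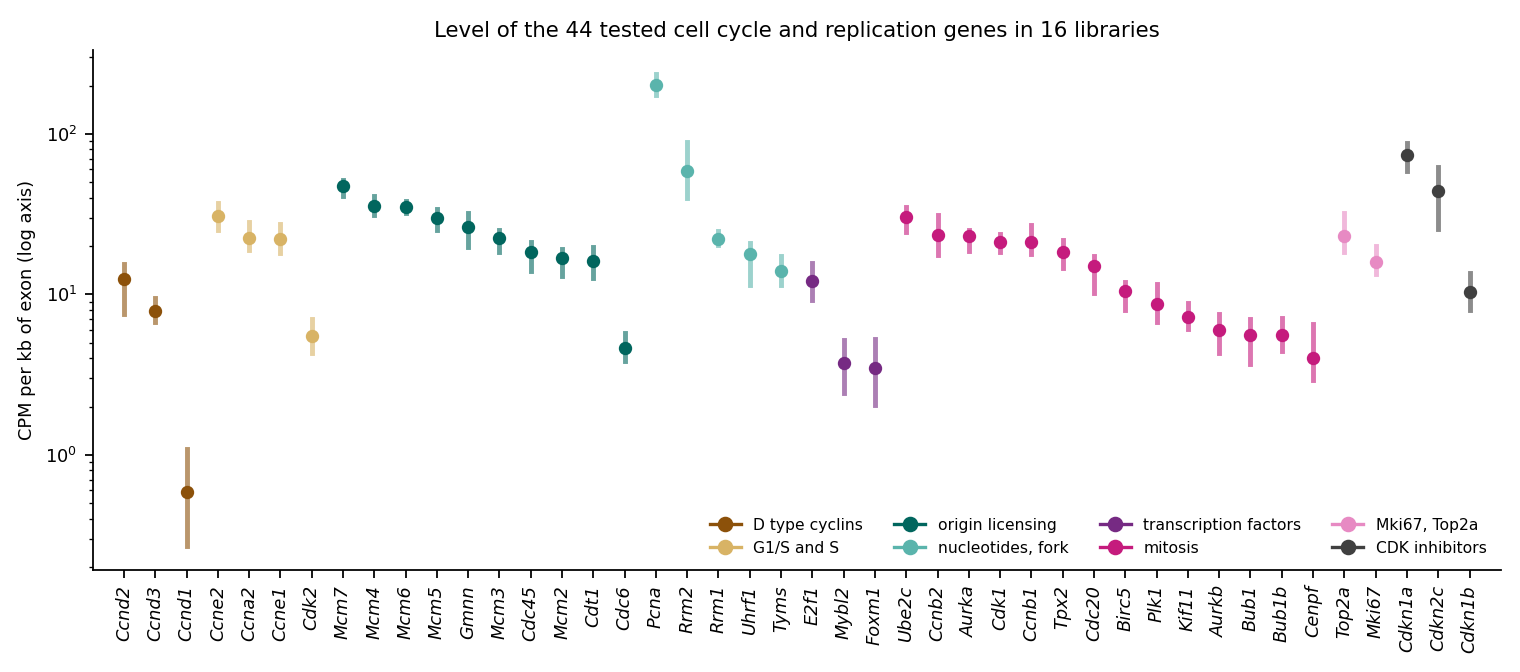
Level of the 44 tested genes in CPM per kb of exon on a log axis, grouped by role. Dots are means over 16 libraries and bars run from the lowest to the highest library. *Pcna* at 200 CPM per kb is at the top and *Ccnd1* at 0.589 at the bottom.

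Promoter sequences were looked up because most mitotic genes were highest in the same replicate number, as described further on. RefSeq windows on GRCm38.p6, reaching from 250 bases before to 50 bases after a start site, were found for 35 of the 45 genes, 5 of them with 2 windows. No window was at hand for *Aurkb*, *Ccna2*, *Ccnd1*, *Ccnd2*, *Ccne2*, *Cdkn1c*, *Foxm1*, *Gmnn*, *Mcm4* and *Tpx2*. Both strands were searched for an E2F element (TTTGGCGC, TTTCCCGC, TTTCGCGC or TTTGCCGC), the CHR element of late cell cycle genes (TTTGAA), the CCAAT box, and the cAMP response element (TGACGTCA, which contains the shorter TGACG, also searched).

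An E2F element was found in 9 of the 35 genes (25.7%) and in 2.26% of all 32851 windows. Among origin licensing genes it was present in 6 of 8, namely *Cdc6*, *Cdt1*, *Mcm3*, *Mcm5*, *Mcm6* and *Mcm7*. A CHR element was found in 13 of 35 (37.1%, against 17.9% of all windows), which included 9 of 12 mitotic genes and both *Mki67* and *Top2a*. A CCAAT box was found in 27 of 35 (77.1%, against 37.4%) and in 11 of 12 mitotic genes. TGACGTCA occurred in *Mcm5* alone (1.79% of all windows), and TGACG in 11 of 35 (31.4%, against 20.8%). A match is a description of letters and not a site of binding, and a gene with 2 windows counted if either held the letters. The share over all windows was counted by window and not by gene, which can raise the share of the genes beside it.

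The windows shown are those of *Cdkn2c*, which had the largest log2 difference with isoproterenol, *Rrm2*, which differed by treatment and replicate number, *Mcm5*, which held both an E2F element and the cAMP response element, and *Cdk1*, *Top2a* and *Cenpf*, which were picked for holding CHR elements and being highest in replicate 6. Of the 13 genes with a CHR element, *Aurka*, *Plk1*, *Ube2c*, *Mcm2* and *Cdc45* were not highest in replicate 6, while *Bub1*, *Ccnb1*, *Birc5*, *Rrm2*, *Cdk2*, *Cdc6*, *Mcm6*, *Mcm7* and *Cdkn1b*, which had none in their windows, were. The windows are written 5′ to 3′ on the gene's strand, with matched letters in capitals.
Cdkn2c, chr4:109665323-109665622, minus strand: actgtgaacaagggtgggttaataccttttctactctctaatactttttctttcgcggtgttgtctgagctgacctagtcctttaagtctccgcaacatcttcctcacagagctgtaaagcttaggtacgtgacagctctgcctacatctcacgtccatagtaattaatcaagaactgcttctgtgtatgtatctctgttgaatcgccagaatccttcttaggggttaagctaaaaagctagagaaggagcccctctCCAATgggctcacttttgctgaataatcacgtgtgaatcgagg
Cdkn2c, chr4:109666707-109667006, minus strand: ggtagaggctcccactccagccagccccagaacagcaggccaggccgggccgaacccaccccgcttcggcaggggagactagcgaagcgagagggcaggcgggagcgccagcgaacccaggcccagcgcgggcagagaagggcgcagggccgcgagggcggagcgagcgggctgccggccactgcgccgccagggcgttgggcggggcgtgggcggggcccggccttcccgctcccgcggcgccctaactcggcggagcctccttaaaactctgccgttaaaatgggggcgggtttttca
Rrm2, chr12:24708004-24708303, plus strand: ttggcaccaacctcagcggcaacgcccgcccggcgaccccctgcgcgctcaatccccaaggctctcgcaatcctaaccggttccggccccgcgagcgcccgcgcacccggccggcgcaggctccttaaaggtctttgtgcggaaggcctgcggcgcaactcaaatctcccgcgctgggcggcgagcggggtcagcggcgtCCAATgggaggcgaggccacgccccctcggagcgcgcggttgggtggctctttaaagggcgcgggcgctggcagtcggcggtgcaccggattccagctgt
Mcm5, chr8:75109259-75109558, plus strand: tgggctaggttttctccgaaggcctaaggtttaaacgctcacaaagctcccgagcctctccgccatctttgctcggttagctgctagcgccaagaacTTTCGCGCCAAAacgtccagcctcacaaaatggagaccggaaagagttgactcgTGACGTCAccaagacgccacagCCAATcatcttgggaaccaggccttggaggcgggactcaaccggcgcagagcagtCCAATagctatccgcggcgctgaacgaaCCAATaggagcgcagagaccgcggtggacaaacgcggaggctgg
Cdk1, chr10:69352863-69353162, minus strand: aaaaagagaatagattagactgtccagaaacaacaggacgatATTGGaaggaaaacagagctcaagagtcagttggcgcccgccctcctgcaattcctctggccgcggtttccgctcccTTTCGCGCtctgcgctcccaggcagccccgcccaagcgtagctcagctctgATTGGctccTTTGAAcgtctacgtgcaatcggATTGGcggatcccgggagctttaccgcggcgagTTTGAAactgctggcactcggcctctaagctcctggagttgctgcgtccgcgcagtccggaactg
Top2a, chr11:99024140-99024439, minus strand: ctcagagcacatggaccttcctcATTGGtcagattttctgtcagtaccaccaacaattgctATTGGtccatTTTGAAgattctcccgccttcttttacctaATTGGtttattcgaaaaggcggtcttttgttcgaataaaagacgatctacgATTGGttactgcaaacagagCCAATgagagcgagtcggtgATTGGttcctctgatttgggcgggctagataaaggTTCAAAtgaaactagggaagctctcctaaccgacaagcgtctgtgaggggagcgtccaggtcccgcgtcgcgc
Cenpf, chr1:189688037-189688336, minus strand: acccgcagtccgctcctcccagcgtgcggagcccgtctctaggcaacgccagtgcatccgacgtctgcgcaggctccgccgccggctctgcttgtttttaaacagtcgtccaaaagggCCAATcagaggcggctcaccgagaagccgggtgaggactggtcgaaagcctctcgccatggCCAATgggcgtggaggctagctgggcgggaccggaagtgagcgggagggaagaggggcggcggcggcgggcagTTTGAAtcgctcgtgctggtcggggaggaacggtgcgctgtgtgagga

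Isoproterenol for 24 h was compared with no stimulation over both plasmids, which asks how the thermogenic stimulus bears on these genes. In pairs of the same plasmid and replicate number, *Cdkn2c*, *Ccnd2*, *E2f1*, *Cdk2* and *Mcm7* were lower with isoproterenol in 8 of 8. *Mybl2*, *Rrm2* and *Rrm1* were higher in 8 of 8, *Rrm1* by 0.06 on the log2 scale. The share of all genes tested with 8 of 8 pairs in the same direction is not given, here or for the plasmids below. With the number as a block, 10 genes were lower on adjusted p, against 10.4% of all genes tested, and 3 higher, against 10.9%. A gene was called when edgeR's quasi-likelihood test gave an adjusted p under 0.05 and the log2 difference exceeded 0.5 in size. Without a term for replicate number, 0 of 44 genes were called, against 2.65% of all genes tested. The unadjusted p was below 0.05 for 8 of the 44 and for 2330 of the 13150 genes, and DESeq2 called 0 as well. On adjusted p alone *Cdkn2c* passed, against 4.49% of all genes. Libraries of the same number tended to deviate together. With the number as a block 1 gene, *Cdkn2c*, was called, against 5.7% of all genes, whereas DESeq2 with the block called 0.

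On adjusted p alone in the blocked fit, 3 of 44 genes were higher with isoproterenol (*Mybl2*, *Rrm2* and *Gmnn*) against 10.9% of all genes, and 10 were lower against 10.4%. The 10 were *Cdkn2c*, *Ccnd2*, *Ccnd3*, *E2f1*, *Cdk2*, *Mcm7*, *Cdc45*, *Tyms*, *Ccnb2* and *Cdc20*. Over 20 blocked fits with libraries left out, the number of genes passing in either direction ran from 5 (without replicate 5) to 14. *Ccnd3* and *Gmnn* passed in 5 of these fits, and *Cdk2* and *Cdc20* in 8. In all, 15 log2 differences were above 0 and 29 below, with a median of −0.07 against 0.003 over all genes tested. For 41 of 44 genes the 95% interval lay within 0.5 of 0 on the log2 scale, as it did for 69% of all genes.

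**Figure D2:**
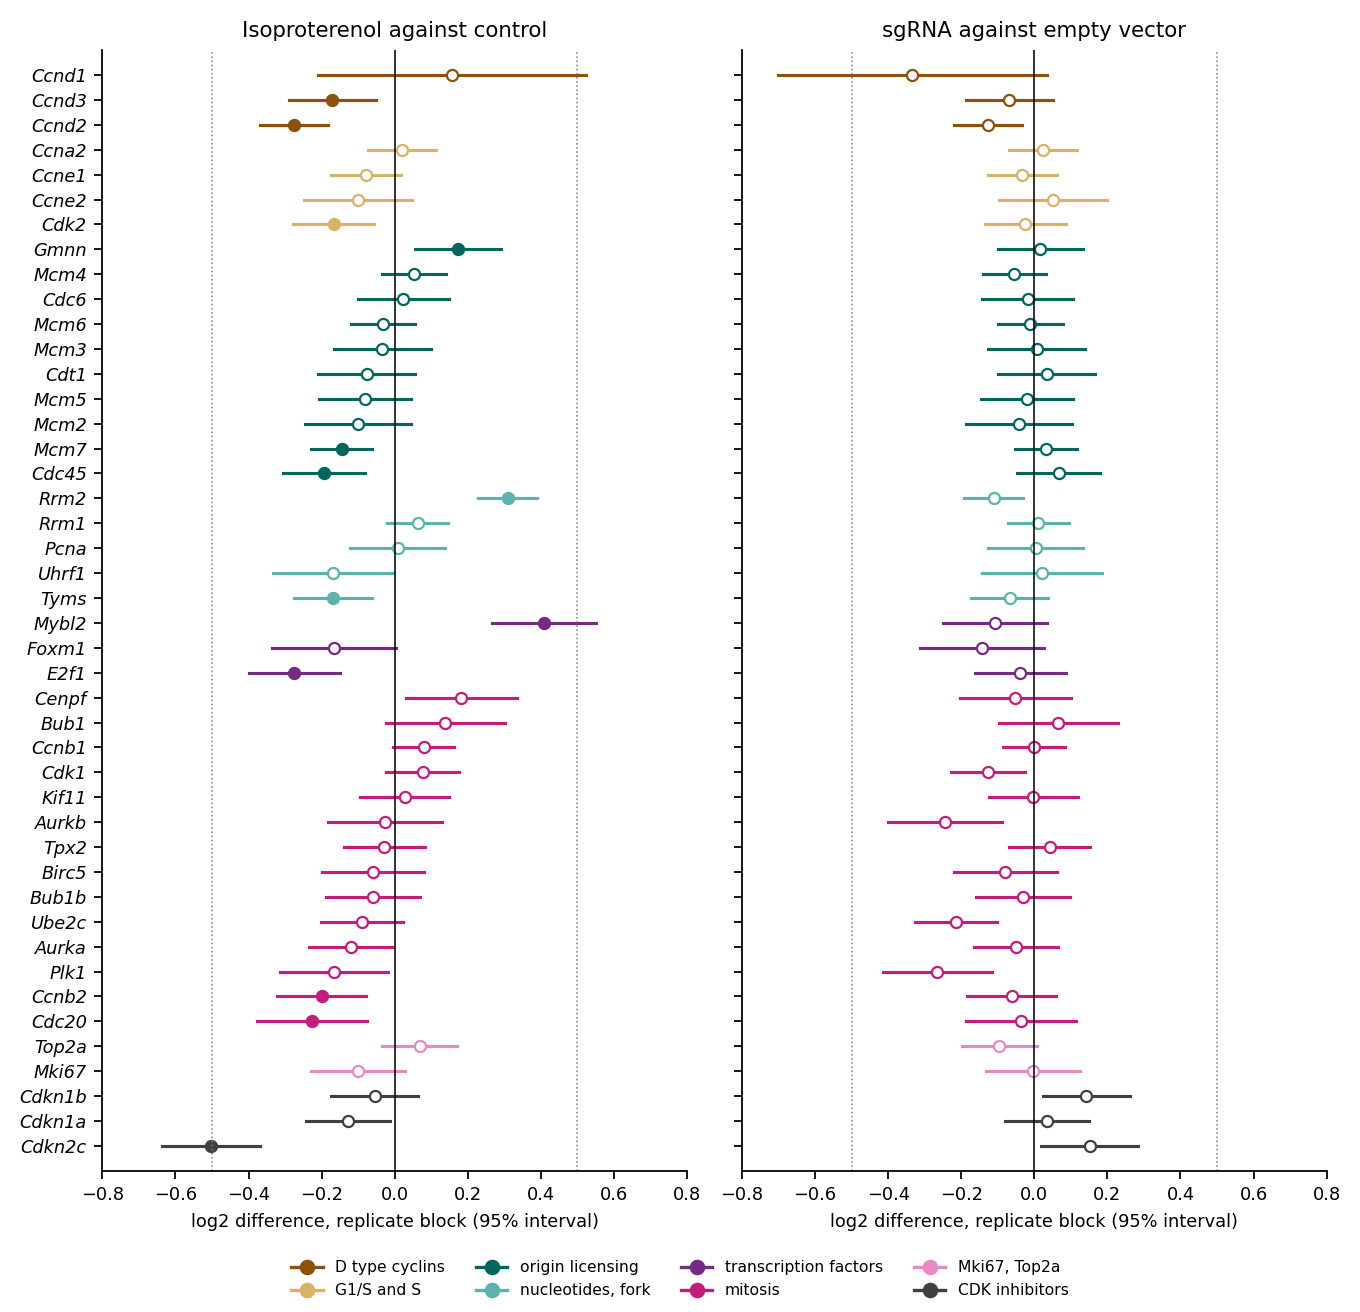
Log2 difference for isoproterenol and for the sgRNA plasmids in 44 genes, with 95% intervals, from the fit with replicate number as a block. Filled points have an adjusted p under 0.05 and dotted lines mark a difference of 0.5 in either direction. *Cdkn2c* at −0.50 and *Mybl2* at 0.41 lie farthest from 0 in the isoproterenol panel, and no point is filled in the sgRNA panel.

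*Cdkn2c*, which blocks CDK4 and CDK6, lies on mouse chromosome 4 (GRCm38 chr4:109660876-109667189, minus strand). In replicates 3 to 6 it stood at 166, 149, 136 and 96.6 CPM in empty control and at 89.3, 109, 93 and 68.6 CPM in empty isoproterenol libraries. In sgRNA control libraries it stood at 151, 136, 156 and 120 CPM, and with isoproterenol at 114, 123, 116 and 76.1 CPM. The group means were 137 ± 29.5, 90.1 ± 16.7, 141 ± 16.4 and 107 ± 21.1 CPM (SD, n = 4). The stimulated library was lower in 8 of 8 pairs of the same plasmid and number, although the ranges of control and stimulated libraries overlapped. The log2 difference was −0.498 (SE 0.13, adjusted p = 0.0368) without the block, just inside the bound of 0.5, and −0.503 (95% interval −0.64 to −0.37, adjusted p = 3.3e-05) with it.

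The other inhibitors among the 44 did not pass. *Cdkn1a*, the most abundant of them, stood at 285, 273, 303 and 230 CPM in empty control and 209, 255, 309 and 223 CPM in empty isoproterenol libraries, and at 284, 255, 313 and 257 against 247, 238, 306 and 234 CPM with the sgRNA plasmids. It had group means of 273 ± 31, 249 ± 44.2, 277 ± 27.2 and 256 ± 33.4 CPM (SD, n = 4) in empty control, empty isoproterenol, sgRNA control and sgRNA isoproterenol, with a log2 difference of −0.13 (95% interval −0.24 to −0.01, adjusted p = 0.104 with the block). *Cdkn1b*, which restrains CDK2, differed by −0.05 (95% interval −0.17 to 0.06).

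The INK4 genes outside the 45 were read from a list of 28 other G1 kinases, inhibitors and Rb-E2F regulators, of which 27 were tested. *Cdkn2a*, which encodes p16INK4a and p19ARF, and its neighbour *Cdkn2b* (chr4:89274471-89294653 and chr4:89306299-89311039, both on the minus strand) were the members of that list called in both fits, each of them lower with isoproterenol. *Cdkn2a* stood at 138, 132, 124 and 79.9 CPM in empty control and 43.2, 89.7, 68.8 and 59.3 CPM in empty isoproterenol libraries, and at 114, 109, 125 and 128 against 64.6, 90.7, 74.7 and 60.2 CPM with the sgRNA plasmids. It was lower in 8 of 8 pairs, and only the empty control library of replicate 6 lay within the range of the stimulated ones. The log2 difference was −0.79 (adjusted p = 0.00422) without and −0.81 (adjusted p = 1.42e-04) with the block.

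*Cdkn2b* was scarce, with means of 7.8 ± 0.26 and 4.99 ± 0.852 CPM (SD, n = 4) in the empty vector groups and 7.87 ± 1.39 and 5.23 ± 0.755 CPM with the sgRNA plasmids. Every stimulated library lay between 3.74 and 6.07 CPM and every control library between 6.14 and 9.42 CPM, without overlap. It fell by 0.61 on the log2 scale in both fits (adjusted p = 0.00618 without and 4.02e-04 with the block). *Cdkn2d*, the remaining INK4 gene, differed by −0.10 (95% interval −0.26 to 0.06). *Cdk6*, a kinase that INK4 proteins bind, was lower by 0.44 on the log2 scale, inside the bound (adjusted p = 2.3e-04 with the block).

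**Figure D3:**
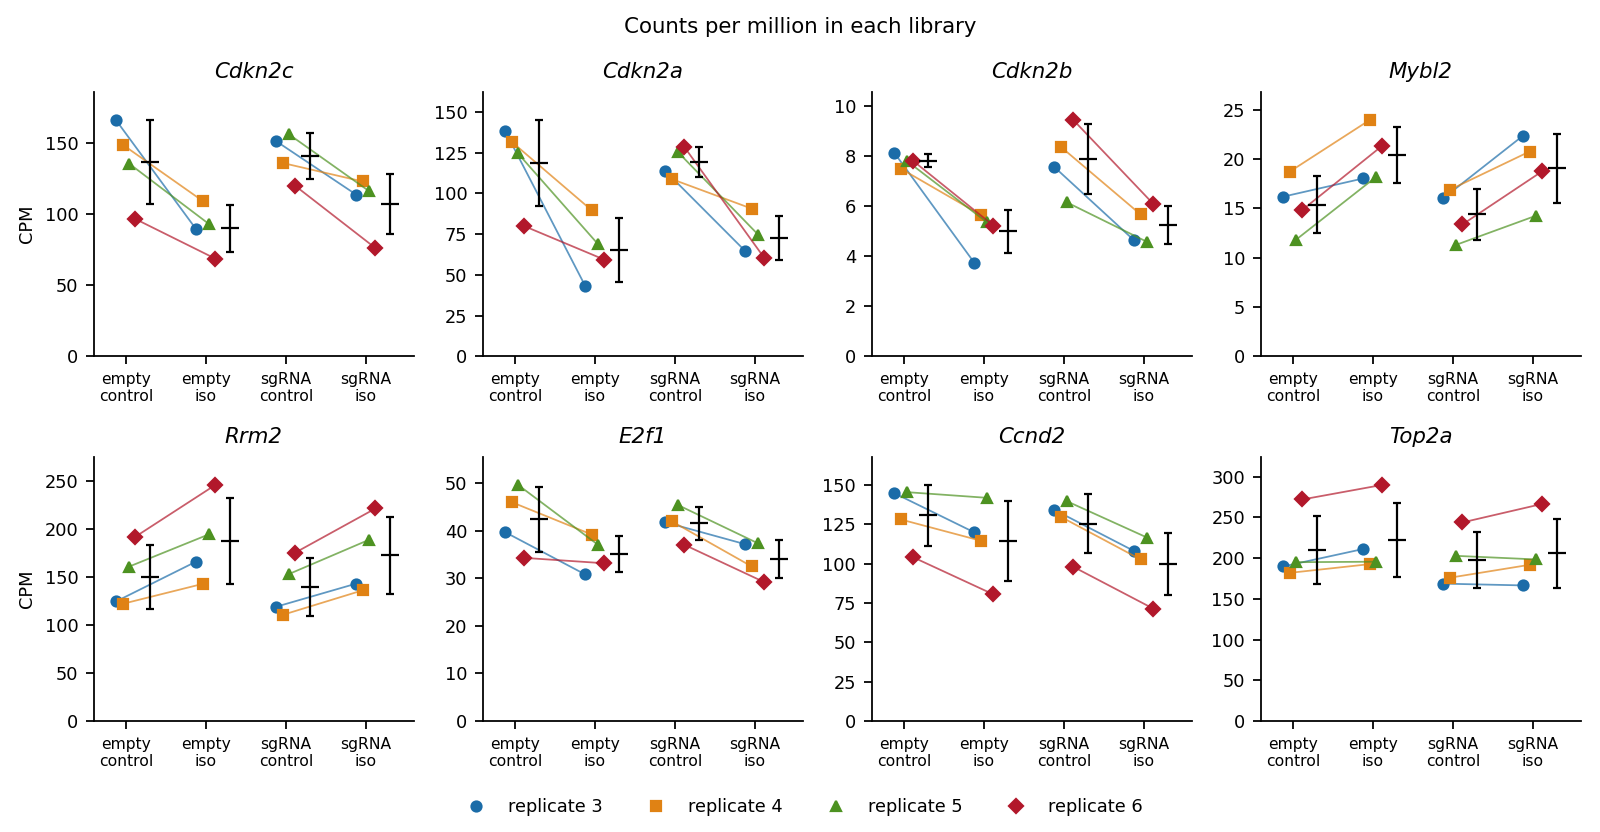
CPM in each of the 16 libraries for 8 genes, with thin lines joining control and isoproterenol libraries of the same replicate number and black bars for the mean ± SD (n = 4). *Cdkn2c*, *Cdkn2a* and *Cdkn2b* go down in every pair and *Mybl2* and *Rrm2* go up in every pair, whereas *Top2a* differs mainly by replicate number.

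Among the transcription factors, *Mybl2*, which encodes B-MYB, stood at 16.2, 18.7, 11.8 and 14.8 CPM in replicates 3 to 6 of the empty control group and at 18, 24, 18.2 and 21.4 CPM with isoproterenol. With the sgRNA plasmids it stood at 16, 16.9, 11.3 and 13.4 CPM in control and 22.4, 20.8, 14.3 and 18.8 CPM in stimulated libraries. It was higher in 8 of 8 pairs with overlapping ranges. The log2 difference was 0.40 (SE 0.12, adjusted p = 0.0735) without the block, which missed the threshold, and 0.41 (95% interval 0.27 to 0.55, adjusted p = 4.27e-04) with it.

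*E2f1*, the activator of S phase genes, had the opposite sign. It stood at 39.7, 46, 49.6 and 34.3 CPM in empty control and 30.8, 39.2, 37 and 33.1 CPM in empty isoproterenol libraries, and at 41.8, 42, 45.4 and 37 against 37.1, 32.5, 37.3 and 29.2 CPM with the sgRNA plasmids. The ranges overlapped, with group means of 42.4 ± 6.79 and 35 ± 3.77 CPM (SD, n = 4) for empty vector and 41.5 ± 3.43 and 34 ± 3.94 CPM for the sgRNA plasmids. It was lower in 8 of 8 pairs, with a log2 difference of −0.28 (adjusted p = 0.0871) without and −0.27 (95% interval −0.40 to −0.15, adjusted p = 0.00346) with the block. *Foxm1* differed by −0.17 (95% interval −0.34 to 0.002, adjusted p = 0.156 with the block).

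Of the D-type cyclins, *Ccnd2* was lower with isoproterenol in 8 of 8 pairs. It stood at 145, 128, 145 and 104 CPM in empty control and 120, 114, 142 and 80.4 CPM in empty isoproterenol libraries, and at 134, 130, 140 and 97.9 against 108, 103, 116 and 71.3 CPM with the sgRNA plasmids. The ranges overlapped, and replicate 6 was lowest in each group. The log2 difference was −0.26 (adjusted p = 0.296) without and −0.27 (95% interval −0.37 to −0.18, adjusted p = 3.38e-04) with the block. *Ccnd3* was lower by 0.17 in 7 of 8 pairs (adjusted p = 0.0402 with the block). It passed adjusted p in 5 of 20 blocked fits with libraries left out, and without replicate 3 its difference was −0.109 (adjusted p = 0.251). *Ccnd1* differed by 0.16 with a wide 95% interval of −0.21 to 0.52.

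Among genes of nucleotide supply and the replication fork, *Rrm2* was higher in 8 of 8 pairs. It stood at 125, 122, 161 and 192 CPM in empty control and 166, 143, 195 and 246 CPM in empty isoproterenol libraries, and at 119, 111, 153 and 176 against 143, 136, 189 and 222 CPM with the sgRNA plasmids. The ranges of control and stimulated libraries overlapped, and replicates 5 and 6 were the highest in each group. The log2 difference was 0.31 in both fits, with adjusted p = 0.284 without and 2.9e-05 with the block (95% interval 0.23 to 0.39).

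*Rrm1*, the large subunit of the same enzyme, differed by 0.06 (95% interval −0.02 to 0.15), and *Tyms*, which makes thymidylate, was lower by 0.17 in 7 of 8 pairs (adjusted p = 0.0244 with the block). *Tk1*, the salvage enzyme for thymidine, belongs to a list of 55 other G1/S and replication genes and was lower by 0.42 in 8 of 8 pairs (adjusted p = 5.23e-04 with the block). *Uhrf1*, which maintains DNA methylation at the fork, differed by −0.17 (95% interval −0.33 to −0.004, adjusted p = 0.140).

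*Pcna* stood at 480, 437, 506 and 493 CPM in empty control, 568, 493, 422 and 448 in empty isoproterenol, 460, 460, 484 and 516 in sgRNA control and 479, 504, 480 and 468 CPM in sgRNA isoproterenol libraries. The groups overlapped throughout, with means of 479 ± 29.7, 483 ± 64.3, 480 ± 26.6 and 483 ± 15.3 CPM (SD, n = 4). Its log2 difference was 0.01 (95% interval −0.12 to 0.14).

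The MCM helicase genes lay in a narrow band. *Mcm2* to *Mcm6* differed by −0.10 to 0.05 and none of the 5 passed, and *Mcm6* had the smallest spread over libraries of all 44 genes, a coefficient of variation of 4.47%. *Mcm7*, the most abundant of them per kb, stood at 214, 202, 224 and 224 CPM in empty control and 181, 186, 202 and 216 CPM in empty isoproterenol libraries, and at 224, 208, 227 and 227 against 192, 194, 197 and 216 CPM with the sgRNA plasmids. It was lower by 0.15 in 8 of 8 pairs (95% interval −0.23 to −0.06, adjusted p = 0.0163 with the block). *Cdc6* and *Cdt1*, which load the helicase, differed by 0.02 and −0.08 and did not pass.

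*Cdc45*, the helicase activator, was lower by 0.19 (adjusted p = 0.0173), and *Gmnn*, the inhibitor of the licensing factor *Cdt1*, was higher by 0.17 in 6 of 8 pairs (adjusted p = 0.035). *Cdk2* was lower by 0.17 in 8 of 8 pairs (adjusted p = 0.0332), and all these p come from the blocked fit. With libraries left out, *Cdc45*, *Gmnn* and *Cdk2* passed adjusted p in 17, 5 and 8 of 20 blocked fits. *Ccne2*, the cyclin E gene with the highest level, stood at 102, 92.8, 113 and 123 CPM in empty control, 115, 95.6, 88.3 and 110 in empty isoproterenol, 96.5, 104, 130 and 126 in sgRNA control and 96.8, 104, 110 and 102 CPM in sgRNA isoproterenol libraries. The groups overlapped, and *Ccne2*, *Ccne1* and *Ccna2* differed by −0.10, −0.08 and 0.02 and did not pass.

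Mitotic genes showed no common direction, with 5 above and 9 below 0. *Cdc20*, the activator of the anaphase promoting complex, was lower by 0.23 and *Ccnb2* by 0.20, each in 7 of 8 pairs (adjusted p = 0.0336 and 0.0216 with the block). With libraries left out, *Cdc20* passed adjusted p in 8 and *Ccnb2* in 17 of 20 blocked fits. *Cenpf* was 0.18 higher (95% interval 0.03 to 0.34, adjusted p = 0.0834). The other mitotic genes, *Cdk1*, *Ccnb1*, *Ube2c*, *Plk1*, *Aurka*, *Aurkb*, *Birc5*, *Bub1*, *Bub1b*, *Kif11* and *Tpx2*, lay between −0.17 for *Plk1* and 0.14 for *Bub1* and did not pass. *Mki67* differed by −0.10 (95% interval −0.23 to 0.03) and *Top2a* by 0.07 (95% interval −0.03 to 0.17).

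Of 169 further genes of the same processes 166 were tested, and 3 were called with the block, all lower, against 5.7% of all genes. They were *Cdkn2a*, *Cdkn2b* and the p53 target *Bbc3* (−0.65, adjusted p = 0.0262). *Bbc3* passed in 14 of 20 blocked fits with libraries left out and in none without the block. In the blocked fit 33 passed adjusted p, 13 higher against 10.9% and 20 lower against 10.4%. Of 64 other G2 and mitosis genes, 6 were higher and 6 lower on that measure, with none called. Of the 55 other G1/S genes 4 were higher, among them *Brca1* at 0.27, and 6 lower, among them *Pola2* of the primase complex at −0.29.

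Marker genes of other cell states moved with the treatment too. Of 12 adipocyte markers, 7 fell with the block and none rose, and their summed level was lower in 8 of 8 pairs (18650 to 29500 CPM against 14190 to 25850 CPM). Of 10 brown adipocyte markers 8 were tested and 3 rose, with a sum of 203 to 443 against 256 to 597 CPM that was higher in 8 of 8 pairs. Of 16 preadipocyte markers 10 were tested, of which 2 rose with the block and *Ebf2* (−0.48, adjusted p = 3.79e-04) and *Zfp423* (−0.27, adjusted p = 0.0357) were lower inside the bound, each in 8 of 8 pairs. Their sum was 373 to 570 against 422 to 598 CPM and was higher in 8 of 8 pairs, while the defining genes *Dlk1*, *Cd34*, *Dpp4* and *Thy1* stayed below 1 CPM. Of 8 macrophage markers *Cd68* and *Cd14* were tested and both rose, and the sum was 9.06 to 17.6 against 17.5 to 28.1 CPM, while the defining leukocyte gene *Ptprc* stayed at 0.26 CPM or less and *Adgre1* was near 0. Of 5 smooth muscle markers 4 were tested and *Acta2* (−0.50), *Myh11* (−0.75) and *Tagln* (−0.81) fell with the block, while *Des* was higher by 0.49, inside the bound. Without the block *Acta2*, *Myh11* and *Tagln* did not pass (adjusted p = 0.708, 0.143 and 0.550), and neither did *Des*. Nor did the adipocyte markers *Cebpa* and *Plin1*, the brown adipocyte marker *Cidea* or the preadipocyte markers *Ly6a*, *Cd24a* and *Zfp423*. The part of these shifts in the values above was not tested.

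The sgRNA plasmids were compared with empty vector over both treatments, which asks whether activation of *Gm15551* bears on these genes. By edgeR 0 of 44 genes were called without the block, where 0% of all genes tested were called and the unadjusted p was below 0.05 for 2 of the 44 and for 437 of the 13150 genes. In the blocked fit 0 were called against 0.266% of all genes, 0 passed adjusted p alone against 0.586%, and the unadjusted p of 8 was under 0.05, as was that of 1506 of the 13150 genes. DESeq2 called 0 in either fit. The 95% interval lay within 0.5 of 0 for 43 of 44 genes with the block and for 77% of all genes, the exception being *Ccnd1* (−0.33, 95% interval −0.70 to 0.04).

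After *Ccnd1*, the mitotic genes *Plk1*, *Aurkb* and *Ube2c* lay farthest from 0. *Ube2c* stood at 85.1, 88.3, 90.5 and 80.1 CPM in empty control and 79.3, 83.1, 64.7 and 77.5 CPM in sgRNA control libraries, and at 83.6, 86.7, 77.1 and 84.2 against 69.2, 68.5, 63.8 and 77.7 CPM with isoproterenol. It had group means of 86 ± 4.54 and 82.9 ± 4.08 CPM (SD, n = 4) with empty vector and 76.1 ± 7.99 and 69.8 ± 5.79 CPM with the sgRNA plasmids, in control and isoproterenol libraries, and was lower with the sgRNA plasmids in 8 of 8 pairs. Its log2 difference was −0.21 (95% interval −0.33 to −0.10, adjusted p = 0.100 with the block). *Plk1*, the Polo kinase, differed by −0.27 (95% interval −0.41 to −0.12, adjusted p = 0.130) and *Aurkb*, the kinase of the chromosomal passenger complex, by −0.24 (adjusted p = 0.196). The summed level of the 14 mitotic genes was lower with the sgRNA plasmids in 8 of 8 pairs, 651 to 853 CPM against 627 to 800 CPM, with ranges that overlapped widely. The sum of the 3 D-type cyclins was lower in 8 of 8 pairs too (156.5 to 231.4 against 144.8 to 211.6 CPM). So were *Rrm2* and *Cdk1* (adjusted p = 0.264 and 0.316 with the block), whereas the sum of all 45 genes was higher in 3 of 8. The sum of the 64 other G2 and mitosis genes was lower with the sgRNA plasmids in 4 of 8 pairs (2263 to 3052 against 2264 to 3013 CPM), and so was that of *Mki67* and *Top2a*. Outside the 45 genes, the p53 target and death receptor *Fas* fell by 0.68 on the log2 scale (adjusted p = 0.045 with the block), a call that did not pass without the block and passed adjusted p in 1 of 20 blocked fits with libraries left out.

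Other values moved with the plasmid as well. The share of counts from the ribosomal RNA gene was 29 ± 12.8% and 36.8 ± 12.8% (SD, n = 4) in the empty vector groups, without and with isoproterenol, and 19.1 ± 1.11% and 21.1 ± 7.18% with the sgRNA plasmids. In the blocked fit the preadipocyte marker *Ly6a* fell by 0.74 (adjusted p = 0.00491) and the brown adipocyte marker *Cidea* rose by 1.05 (adjusted p = 0.0348), and the macrophage sum was lower in 8 of 8 pairs. The part of these in the mitotic values was not tested.

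The interaction, which asks whether the response to isoproterenol differed between the plasmids, called 0 of 44 genes in edgeR with the block, against 0% of all genes tested. None of the 44 had an unadjusted p under 0.05, DESeq2 called 0, and for 43 of 44 the 95% interval lay within 0.5 of 0, as for 54.8% of all genes. For *Cdkn2c*, *Mybl2* and *Rrm2* the stimulated library differed from its control in the same direction in all 4 pairs of each plasmid.

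The replicate number took a larger share of the spread than either treatment. Of the sum of squares of each gene's log2 CPM, the number took a median of 52% over the 44 genes, isoproterenol 8.25%, the plasmid 1.62%, the interaction 0.451% and the residual 22.3%. Over all genes tested the number took 46.9%. It was the largest term for 26 of the 44 genes, isoproterenol for 5, the plasmid for 2 and the residual for 11. The number has 3 degrees of freedom, against 1 for each treatment.

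Tested across the 4 numbers in edgeR, 11 of 44 genes (25%) were called, against 31.7% of all genes tested, where the call required a range of more than 0.5 between the highest and lowest number. On adjusted p alone 27 passed, against 54.7% of all genes. The genes called were *Ccnd1*, *Ccnd2*, *Rrm2*, *Mybl2*, *Foxm1*, *Aurkb*, *Bub1*, *Cenpf*, *Top2a*, *Cdkn1b* and *Cdkn2c*. None of the 10 licensing genes and none of the 4 G1/S cyclins and kinases was called. On adjusted p alone *Ccna2* (range 0.43), *Ccne1* (0.44), *Cdk2* (0.34), *Cdc6* (0.37), *Gmnn* (0.31) and *Mcm4* (0.24) passed among them. The median log2 range was 0.33 over the 44 genes and 0.446 over all genes.

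*Ccnd1* had the widest range, 1.88 on the log2 scale (adjusted p = 6.0e-05). In replicates 3 to 6 it stood at 3.55, 1.31, 2.21 and 4.78 CPM in empty control, 3.87, 1.27, 2.42 and 5.13 in empty isoproterenol, 1.4, 1.37, 1.35 and 5.09 in sgRNA control and 2.75, 1.47, 1.52 and 4.87 CPM in sgRNA isoproterenol libraries. The 4 libraries of replicate 6 stood above all others. *Foxm1* had a range of 0.85 and stood at 17.3, 17.9, 22.9 and 28 CPM in empty control and 11.7, 16.5, 22.3 and 30.4 CPM in empty isoproterenol libraries. In the sgRNA groups it stood at 17.7, 16.7, 22.1 and 23.8 CPM without and at 13.2, 12.8, 18.4 and 26.5 CPM with isoproterenol.

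*Top2a* showed the same feature, at 190, 182, 195 and 272 CPM in empty control, 211, 193, 196 and 290 in empty isoproterenol, 169, 176, 203 and 244 in sgRNA control and 166, 192, 198 and 267 CPM in sgRNA isoproterenol libraries. Every library of replicate 6 lay above every other library. *Cenpf* stood at 56.6, 45, 46.4 and 83.6 CPM in empty control, 62.9, 62.3, 54.6 and 100 in empty isoproterenol, 50.7, 49.4, 60.4 and 74.8 in sgRNA control and 49.8, 61.9, 57.3 and 81.3 CPM in sgRNA isoproterenol libraries, again with replicate 6 above all others. *Cdkn2c* and *Ccnd2* were called with the opposite pattern, lowest in replicate 6.

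Among the other genes called, *Bub1*, *Aurkb*, *Mybl2* and *Rrm2* did not separate replicate 6, and *Cdkn1b* did by a narrow margin. *Mybl2* was highest in replicate 4 and lowest in replicate 5, and *Rrm2* was highest in replicate 6 and lowest in replicate 4. *Bub1*, a spindle checkpoint kinase, stood at 21.1, 21.5, 16.1 and 30.5 CPM in empty control, 30, 26, 17.4 and 27.8 in empty isoproterenol, 20.9, 25.9, 21.1 and 27.5 in sgRNA control and 24.8, 28.3, 19.4 and 29.2 CPM in sgRNA isoproterenol libraries, with replicate 5 lowest in 3 of the 4. *Aurkb* stood at 16.1, 18.2, 21.6 and 20.1, at 14.6, 17.8, 21.8 and 22.2, at 13.9, 14.3, 16.3 and 21.4, and at 14.9, 12.6, 15.1 and 21.1 CPM in the same groups. *Cdkn1b* stood at 38, 43.7, 43.1 and 57.1, at 38.6, 47.6, 36.5 and 53, at 42.4, 45.6, 52.6 and 62.1, and at 42.2, 45, 48.3 and 56.9 CPM. The replicate 6 libraries of *Cdkn1b* lay at 53 CPM or above and all others at 52.6 CPM or below, and *Aurkb* was highest in replicate 6 in 3 of the 4 groups.

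**Figure D4:**
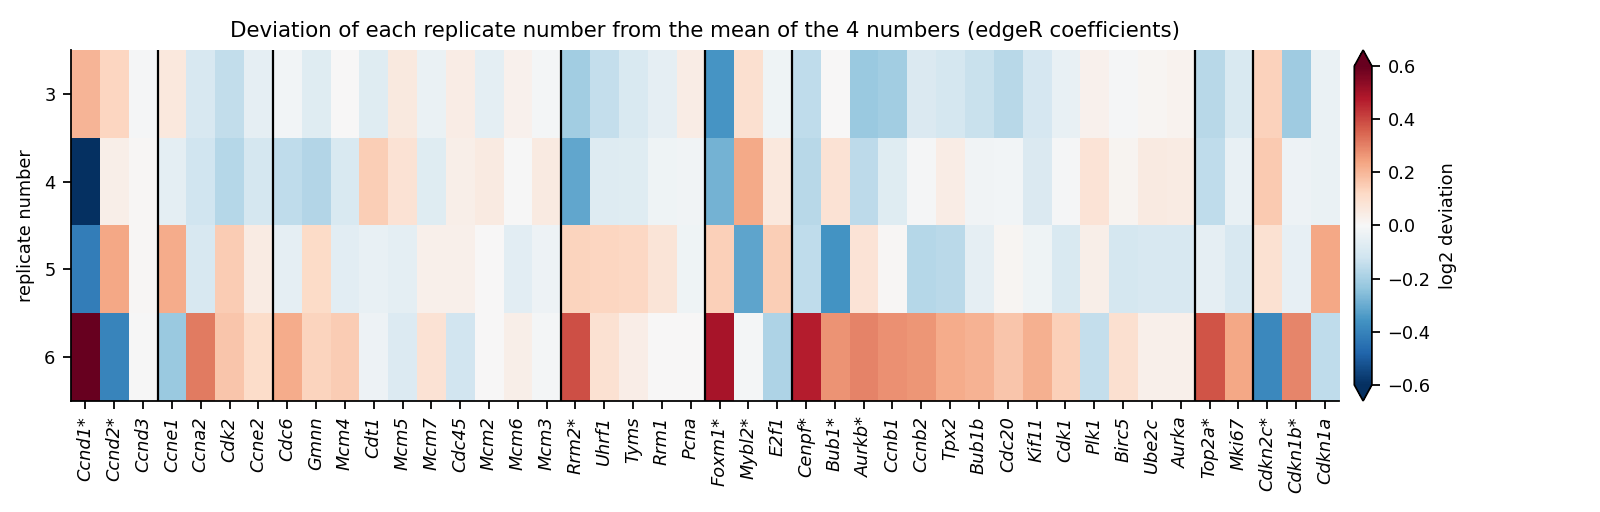
Deviation of each replicate number from the gene's mean, in log2 units, for 44 genes grouped by role, with a star for genes called across numbers. The colour scale ends at 0.6 in either direction, which *Ccnd1* exceeds. Most mitotic genes are highest in replicate 6, whereas *Ccnd3* and *Pcna* are nearly flat.

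In all, 25 of 44 genes (56.8%) were highest in replicate 6, as were 30.3% of all genes tested, and so were 11 of the 14 mitotic genes. The list of 64 other G2 and mitosis genes had 53 (82.8%) highest in replicate 6, and 29 of the 64 were called, among them *Kif20a*, a mitotic kinesin, with a log2 range of 1.08, and *Lmnb1*, a nuclear lamin, with 0.88. Of the genes tested in the lists of G1/S genes, G1 regulators and p53 targets, 7 of 55, 4 of 27 and 11 of 20 were called. These were led by *Rad54l* (0.58), *E2f7* (0.78) and *Bbc3* (1.37), and the share over all genes was 31.7%. The summed mitotic genes stood at 793 to 853 CPM in replicate 6 and at 627 to 748 CPM elsewhere, and the sum of *Mki67* and *Top2a* at 421 to 479 against 303 to 377 CPM, both without overlap. The 10 licensing genes did not separate in this way, at 1012 to 1033 CPM in replicate 6 and 909 to 1050 CPM elsewhere. *Ccnd3* (range 0.01), *Pcna* (0.07) and *Mcm3* (0.08) were the flattest genes.

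Without the libraries of replicate 6, 3 of the 44 genes were called across the remaining numbers, *Ccnd1*, *Mybl2* and *Foxm1*, and 2098 of 13030 genes in all. Beside the mitotic genes, the summed preadipocyte markers were also higher in replicate 6 (531 to 598 against 373 to 511 CPM), as were the summed smooth muscle markers (25 to 37.2 against 12.1 to 20.1 CPM), both without overlap. Of the markers tested, 7 of 10 for preadipocytes were highest in replicate 6 and *Zfp423* and *Ebf2* lowest, and of 4 for smooth muscle *Acta2* and *Tagln* were highest and *Myh11* and *Des* lowest there. In contrast, 9 of 12 adipocyte markers had their lowest value there (sums of 14190 to 22450 against 18570 to 29500 CPM). The part of these differences in the mitotic values was not tested. What the libraries of a number share is not given in the labels.

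**Figure D5:**
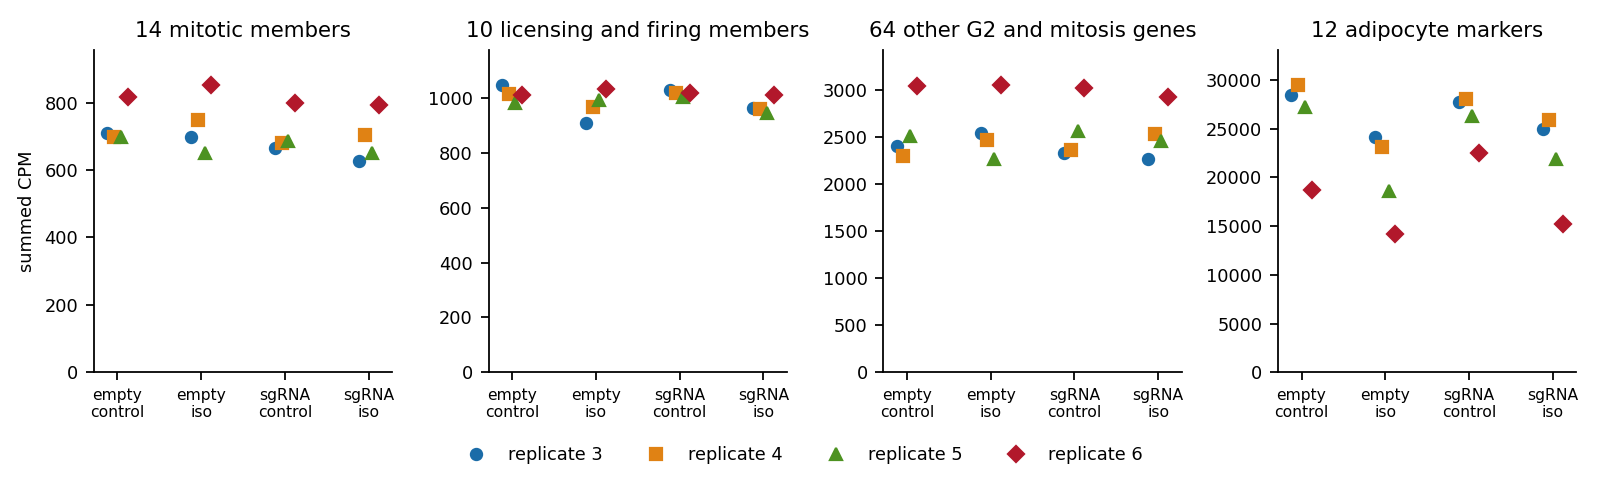
Summed CPM in each library for the 14 mitotic genes, the 10 licensing genes, 64 other G2 and mitosis genes and 12 adipocyte markers, by group and replicate number. The 4 libraries of replicate 6 are above all others in both mitotic panels and within the range of the others in the licensing panel.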

How the data were processed

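PolyA RNA libraries of 16 wt1-SAM samples were deposited by the authors as a table of estimated counts per gene, made with cutadapt and salmon against the GENCODE M22 mouse transcriptome, alone or combined with RNAcentral (which of these was used here is not stated), on GRCm38. The tool versions, the strand setting and the step from transcripts to genes are not given in the sources used here, and reads shared with overlapping or near-identical genes may be split between them. Columns were matched to samples by title, with 0 left unmapped. The counts were already whole numbers. They were filtered (filterByExpr, minimum count 10, minimum total 15), scaled by TMM and tested with edgeR 4.0.16 (R 4.3.3, limma 3.58.1) by quasi-likelihood with Benjamini-Hochberg adjustment over all 13150 genes, with DESeq2 1.42.0 as an alternative. CPM values use TMM library sizes, and exon lengths come from a GENCODE annotation of GRCm38. The intervals at 95% are on the log2 scale. The main fit has no replicate term. Over all genes tested, the 24 library pairs of the same number correlated at 0.20 to 0.62 (median 0.42) in their deviations from group means. The 72 pairs of different number and group ran from −0.52 to 0.52 (median −0.22), so the ranges overlapped. Over the members the values were −0.16 to 0.93 (median 0.69) and −0.82 to 0.73 (median −0.27). The numbers were taken to pair the libraries, and a fit with the number as a block is given beside the main fit. All members are accounted for, with values in every library for members called in any comparison or with the highest level of a role, and of each other list up to 4 called genes could be named. *Tk1*, *Cdk6*, *Cdkn2d*, *Brca1* and *Pola2*, were chosen after their values were seen. The members, roles and lists were chosen with earlier results of these data known. The scripts were tested on simulated data. Alternatives were other scaling, no filter, DESeq2, no bound on the log2 difference, the block, and leaving out libraries or the ribosomal RNA gene. A further fit took the share of that gene as a covariate beside the block.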

Additional observations from a re-analysis of the deposited data

Results flagged for a closer look

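In each group of 4 libraries, the highest and lowest values of each of the 44 genes were set against Dixon's 95% limit, by which about 1 in 20 groups would be expected to stand out by chance. Of 176 groups tested, 12 did (6.82%), in 10 genes, and in 8 of the 12 the library was from replicate 6. In empty control, replicate 6 was far above the others for *Bub1b* (27.5 CPM), *Ccna2* (111 CPM), *Ccnb2* (41.1 CPM) and *Top2a* (272 CPM). In sgRNA control, replicate 6 was far above for *Birc5* (39.2 CPM), *Ccnb2* (47.5 CPM) and *Ccnd1* (5.09 CPM), replicate 3 was far above for *Aurka* (63.8 CPM) and replicate 4 was far below for *Mcm7* (208 CPM). In sgRNA isoproterenol, replicate 6 was far above for *Cdc20* (31.5 CPM). In empty isoproterenol, replicate 5 was far below for *Birc5* (27.1 CPM) and *Cdk1* (102 CPM). That library had the highest share of the ribosomal RNA gene (51.8%) and the fewest other counts (5900607). The empty control library of replicate 5, with a share of 47.3%, was not flagged.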

How the results depend on the processing

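The count of the 44 genes called for isoproterenol was 0 without the block, 1 without a filter on low counts, 1 without a bound on the log2 difference, 1 with the replicate block and 13 with the replicate block and no bound, the last chosen after seeing the data. Over fits that left out libraries it ran from 0 to 1 without and with the block, and *Cdkn2c* was called in 6 of 20 and 11 of 20. With the block, the call of *Cdkn2c* was lost without replicate 3, replicate 6, or any of the libraries of empty control 3, empty isoproterenol 3 and 5, sgRNA control 5 and 6 and sgRNA isoproterenol 3 and 6, its log2 difference ran from −0.573 to −0.451, and adjusted p passed in all 20. Without the block that p passed in 7 of 20 and rose to 0.316 without replicate 3. In replicate 3 the ribosomal RNA gene took 20.9% of counts in empty control and 41.6% in empty isoproterenol. It took 18.6% in sgRNA control and 24% in sgRNA isoproterenol of that number. *Cdkn2a* and *Cdkn2b* missed adjusted p without replicate 3 in the unblocked fit (0.0754 and 0.106). With the block, adjusted p of *Bbc3* for isoproterenol passed in 14 of 20 such fits (up to 0.18, without replicate 3) and that of *Fas* for the plasmid in 1 of 20 (up to 0.289, without replicate 6), and without the block neither passed. *Ccnd2*, *Cdkn2c*, *E2f1*, *Mybl2* and *Rrm2* passed adjusted p for isoproterenol in all 20 blocked fits. The count of the 44 genes passing adjusted p alone ran from 5 to 14 over these fits. *Ccnb2*, *Cdc45* and *Mcm7* passed in 17, *Tyms* in 14, *Cdk2* and *Cdc20* in 8, and *Ccnd3* and *Gmnn* in 5. The count across replicate numbers was 11, 27 with no bound, and ran from 3 (without replicate 6) to 11 with libraries left out. The plasmid and interaction counts were 0 in every setting run. The median level of the genes was 69.2 CPM, and 95.4 CPM with the ribosomal RNA gene left out of the totals. The cause of these shifts was not tested. No result reversed. Low counts limit *Ccnd1*, *Cdkn1c* and *Fas*, among other genes.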
